A study of Mus musculus with 43 samples.

Results

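The 10 genes described here belong to Wnt signalling and were taken by gene symbol from 3 deposited tables of mouse astrocyte RNA-seq, each of which lists 24537 genes and holds all 10 symbols once. They are 3 Wnt ligands (Wnt5a, Wnt7a and Wnt7b), 3 receptors (Fzd2, Ror1 and Ror2), 2 secreted modulators (Sfrp1 and Dkk3) and 2 genes downstream of beta-catenin (Axin2 and Lef1). The rule that picks them uses the symbols only. The disorder table compares astrocytes of 3 mouse models with 6 wild-type (WT) libraries. The models are of Fragile X syndrome, with 6 libraries called FXS here, of Rett syndrome, with 6 called RTT, and of Down syndrome, with 4 called DS. The BMP6 table holds WT astrocytes given BMP6 for the last 5 days in culture (BMP6, n = 6) beside untreated ones (Alone, n = 6). Cells of both tables were taken from cortex of 7-day-old mice by immunopanning, an antibody capture on coated dishes, and grown for 12 days in a defined medium that holds no serum. The preparation table holds MD cultured, IP cultured and IP acute astrocytes (n = 3 each). The labels spell out neither abbreviation, and they give no age, medium or time in culture for these 9 libraries. The alleles and strains of the disorder models are not given in the sources used here, and a single batch label covers the 22 disorder libraries.

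Wnt proteins are secreted lipid-modified ligands that bind Frizzled receptors on the receiving cell. In the canonical branch, Frizzled and an Lrp5 or Lrp6 co-receptor stop the breakdown of beta-catenin, which then switches on target genes with a TCF or LEF factor. In the other branch, for which Wnt5a is best known, Ror1 and Ror2 act with Frizzled on cell polarity and movement without beta-catenin. In brain, Wnt7a and Wnt7b are known as signals to the endothelium of blood vessels, received there through Adgra2 and Reck. All 10 genes code for protein, and RefSeq places them on GRCm38.p6, the assembly that mm10 names. Wnt5a lies at chr14:28504543-28527448 on the plus strand, and Wnt7a at chr6:91363981-91411353 and Wnt7b at chr15:85535437-85581821, both on the minus strand. Fzd2 lies at chr11:102604431-102608058 and Ror1 at chr4:100095791-100444806, both plus, and Ror2 at chr13:53109317-53286124, minus. Sfrp1 lies at chr8:23411383-23449632, plus, Dkk3 at chr7:112116019-112159482, minus, and Axin2 at chr11:108917828-108950783 and Lef1 at chr3:131110297-131224357, both plus.

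RefSeq promoter windows (GRCm38.p6, 250 bases before to 50 bases after a transcript start) were at hand for 5 of the 10 genes, Wnt7a, Ror1, Ror2, Axin2 and Lef1. The 250 bases before the start are printed for the pair of Ror receptors, which took opposite directions in MD cultured cells, and for the 2 genes downstream of beta-catenin. Lef1 has 4 annotated starts, of which the first and the last are shown. Both strands of the whole window were searched for TCF/LEF words, which are CTTTGAA, or CTTTGAT in its place, further CTTTGTA, or lastly CTTTGTT. Words of BMP-activated Smads were GGCGCC and, in addition, GGAGCC, and capitals mark each match as it reads on the printed strand.
Ror1, chr4:100095541-100095790, plus strand: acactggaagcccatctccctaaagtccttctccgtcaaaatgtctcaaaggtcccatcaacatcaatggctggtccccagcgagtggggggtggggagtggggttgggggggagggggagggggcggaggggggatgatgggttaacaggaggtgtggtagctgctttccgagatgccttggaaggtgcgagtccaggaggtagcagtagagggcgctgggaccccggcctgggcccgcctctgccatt
Ror2, chr13:53286125-53286374, minus strand: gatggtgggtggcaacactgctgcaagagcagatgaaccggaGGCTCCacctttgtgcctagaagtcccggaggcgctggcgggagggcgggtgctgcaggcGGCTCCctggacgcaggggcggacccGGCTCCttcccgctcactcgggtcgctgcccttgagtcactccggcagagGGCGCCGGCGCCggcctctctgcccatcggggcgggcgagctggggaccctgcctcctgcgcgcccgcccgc
Axin2, chr11:108920099-108920348, plus strand: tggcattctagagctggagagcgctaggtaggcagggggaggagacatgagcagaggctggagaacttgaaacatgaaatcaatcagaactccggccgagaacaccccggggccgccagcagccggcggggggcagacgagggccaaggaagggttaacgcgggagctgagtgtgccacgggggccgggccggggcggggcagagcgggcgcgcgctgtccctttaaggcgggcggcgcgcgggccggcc
Lef1 start 1, chr3:131110047-131110296, plus strand: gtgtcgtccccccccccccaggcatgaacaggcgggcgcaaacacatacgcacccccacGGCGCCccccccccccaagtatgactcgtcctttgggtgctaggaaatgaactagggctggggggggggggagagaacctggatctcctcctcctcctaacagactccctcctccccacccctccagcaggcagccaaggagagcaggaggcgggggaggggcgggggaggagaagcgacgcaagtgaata
Lef1 start 4, chr3:131156044-131156293, plus strand: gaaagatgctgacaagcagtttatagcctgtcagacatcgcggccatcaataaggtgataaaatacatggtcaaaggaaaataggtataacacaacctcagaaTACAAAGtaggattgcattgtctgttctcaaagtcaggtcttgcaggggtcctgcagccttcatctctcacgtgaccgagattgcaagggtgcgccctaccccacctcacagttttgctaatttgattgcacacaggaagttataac

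The Ror2 window held 2 GGCGCC words next to each other, which overlap no other match, and 3 GGAGCC words, which read GGCTCC on the printed strand. The Ror1 window held none of the 6 words. The Axin2 window belongs to an annotated start at position 108920349, inside the span of the gene given above. It held 1 GGAGCC word, 34 bases into the transcript and so after the printed stretch, and none of the TCF/LEF words. The only TCF/LEF word in these windows was CTTTGTA on the reverse strand of the last Lef1 start, 147 bases before it. Of 32841 such windows in the same RefSeq table, 16.87% held a TCF/LEF word, 11.87% held GGCGCC and 30.85% held GGAGCC, so a match in one window is common and is given here as a description only.

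Fmr1, the gene silenced in Fragile X syndrome, lay between 0.967 and 2.21 FPKM (reads scaled by transcript length and library size) in FXS libraries, against 12.0 to 17.1 in WT libraries. App, which lies in the segment triplicated in Down syndrome, lay between 275.7 and 652 FPKM in DS libraries, against 137.7 to 203.1 in WT libraries. Id1, a direct BMP target, lay between 217.1 and 268.1 FPKM in BMP6 libraries, against 34.9 to 126.7 in Alone libraries. From the size of the smallest FPKM steps, the reads behind a library were estimated at 10540000 to 55450000, with medians of 44540000 in FXS, 36000000 in RTT, 31070000 in DS and 18110000 in WT. Astrocyte markers were abundant in each of the 9 groups, with a summed level of 1121 FPKM or more over 12 genes in every library. The endothelial markers Cldn5 and Pecam1 lay between 399.1 and 677 FPKM and between 77.6 and 143.7 FPKM in IP acute libraries. Neither passed 0.146 FPKM in MD cultured or IP cultured libraries. Their whole list of 12 summed to 71.4 to 112.8 FPKM in MD cultured, 7.31 to 23.5 in IP cultured and 914.6 to 1718 in IP acute libraries. Of the 12, 6 averaged 1 FPKM or more in MD cultured and 4 in IP cultured libraries.

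Differences were tested with limma across all genes of a table on log2(FPKM + 0.5), with the Benjamini-Hochberg adjustment over all genes tested, and a gene was called at an adjusted p under 0.05. Of the 10 genes, 9 passed the filter on low values in the disorder and BMP6 tables and 10 in the preparation table. Lef1 was the exception. In the preparation table it passed only through the IP acute libraries, so it had to differ from them and is left out of the counts against IP acute. Ror2 passed in the BMP6 table only with the help of the Alone libraries and is left out of the BMP6 counts. For the BMP6 and preparation comparisons, the shares of all genes likewise leave out genes that passed only with the help of 1 group compared. In FXS against WT no member was called, while 0.00782% of all genes were, and 6 of the 9 had an unadjusted p under 0.05, against 19.5% of all genes. In RTT against WT likewise no member was called, with 0.00782% of all genes called, and 1 of the 9 had an unadjusted p under 0.05, against 10.5% of all genes. In DS against WT 1 of the 9 was called, and it was lower, against 4.35% of all genes called and 2.25% called lower. There 5 of the 9 had an unadjusted p under 0.05, against 19.8% of all genes. In BMP6 against Alone 2 of the 9 were called, both lower, against 15.1% of all genes called and 9.72% called lower. The preparations differed in a large share of all genes. IP cultured against IP acute had 3 of the other 9 called, 1 higher and 2 lower, against 43.3% of all genes, 17.8% higher and 25.5% lower. MD cultured against IP cultured had 7 of the 10 called, 3 higher and 4 lower, against 45.8% of all genes, 16.4% higher and 29.3% lower. MD cultured against IP acute had 6 of the other 9 called, 1 higher and 5 lower, against 60.1% of all genes, 20.4% higher and 39.8% lower. Libraries of the 2 groups did not overlap for 0 of 9 members in FXS against WT, 0 of 9 in RTT against WT and 2 of 9 in DS against WT, beside 2.61%, 1.39% and 6.2% of all genes. The same held for 2 of 8 in BMP6 against Alone (7.87% of all genes) and 4 of 9 in IP cultured against IP acute (49.4%). It held for 8 of 10 in MD cultured against IP cultured (56%) and 7 of 9 in MD cultured against IP acute (70.4%). The median log2 fold change over the 9 genes was -0.10 for FXS, -0.04 for RTT and 0.10 for DS, each against WT, and -0.04 for BMP6 against Alone. Over all genes tested these medians were -0.02, -0.03, -0.07 and -0.08. The 3 disorder comparisons share the WT libraries, and the preparation comparisons share libraries in pairs.

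**Figure D1:**
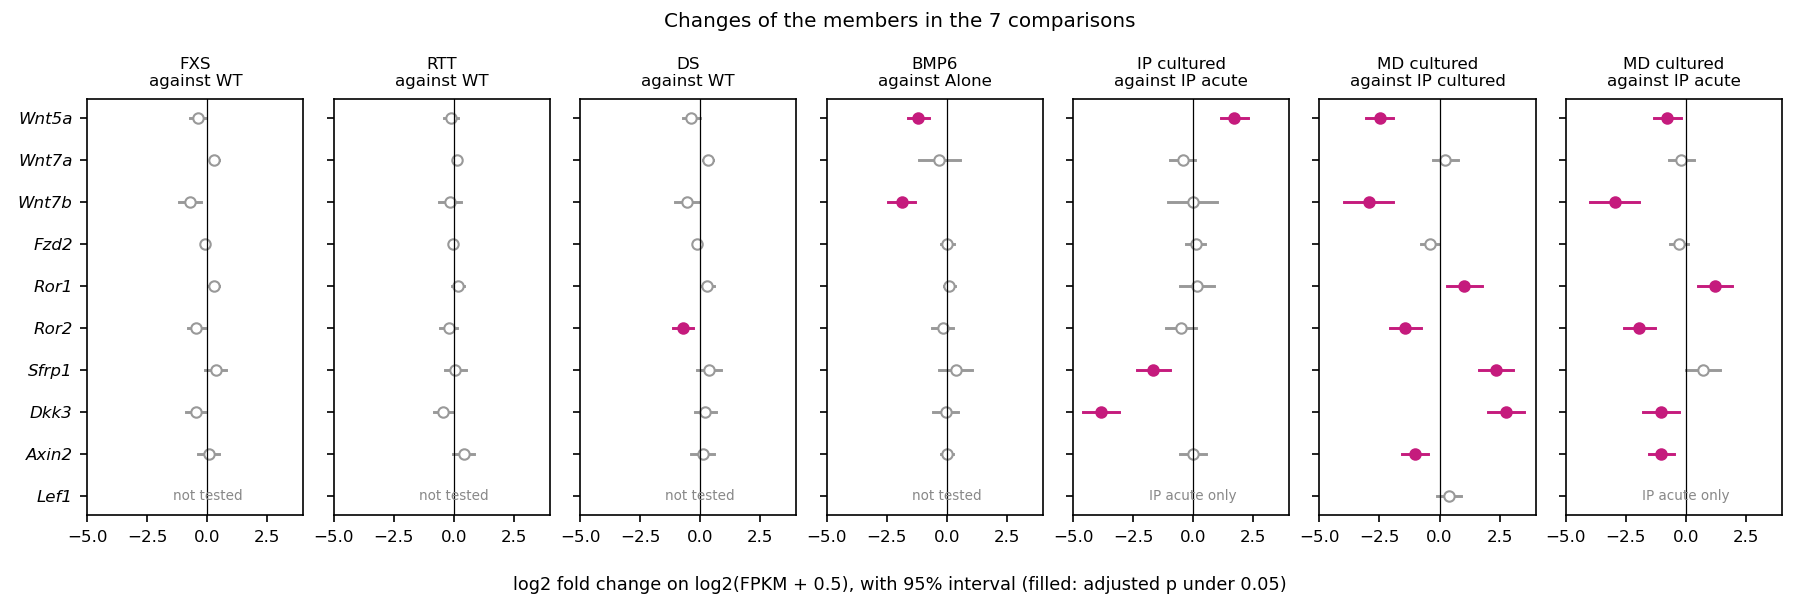
Log2 fold changes of the 10 genes (rows) in 7 comparisons (panels), on log2(FPKM + 0.5) with 95% intervals from limma. Filled points have an adjusted p under 0.05: 1 gene in the disorder panels (Ror2 in DS against WT), Wnt5a and Wnt7b for BMP6, and 3, 7 and 6 genes in the preparation panels. Lef1 has no point against IP acute, the one group through which it passed the filter. Ror2 has an open point for BMP6, where it passed the filter only with the help of the Alone libraries.

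Wnt5a and Wnt7b, 2 of the 3 ligands, fell under BMP6, and Wnt7a did not pass the test. The lowest, median and highest Wnt5a levels were 11.1, 14.2 and 16.9 FPKM in BMP6 libraries, against 21.02, 32.6 and 49.9 in Alone libraries. The groups did not overlap, as held for 7.93% of all genes tested, and BMP6 was lower in 6 of 6 cultures, at 0.314 to 0.736 of the level in the untreated library of the same culture. The log2 fold change of Wnt5a was -1.18 (SE 0.20, adjusted p = 0.00421). Wnt7b had 2.31, 3.71 and 4.82 FPKM in BMP6 libraries, against 8.5, 14.8 and 23.9 in Alone libraries. These groups did not overlap either, the ratio within a culture was 0.168 to 0.369 in 6 of 6 cultures, and the log2 fold change was -1.86 (SE 0.26, adjusted p = 0.00145). Both calls held in each of the 19 alternatives tried. Wnt7a had 4.75, 9.74 and 20.7 FPKM in BMP6 libraries, against 4.69, 14.7 and 21.9 in Alone libraries, and it was lower with BMP6 in 5 of 6 cultures. Its 6 cultures differed among themselves by more than the treatment did, and its log2 difference was -0.31 (SE 0.40, adjusted p = 0.636). That fit does not use the pairing, and the ratio within a culture was 0.622 to 1.01. Over the 19 alternatives, which include the culture as a block, the adjusted p of Wnt7a ran from 0.0592 to 0.907. An effect of BMP6 on Wnt7a was thus neither shown nor excluded.

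Together Wnt5a, Wnt7a and Wnt7b made up 55.9% to 71.6% of the summed FPKM of the 19 Wnt ligand genes in BMP6 libraries, against 82.0% to 93.2% in Alone libraries. The summed ligand level averaged 44.8 ± 11.1 FPKM in BMP6 libraries and 73.4 ± 20.6 FPKM in Alone libraries (SD, n = 6 each). Wnt5b, a close relative of Wnt5a, stood at 11.2 ± 2.85 FPKM in BMP6 libraries and 6.00 ± 2.95 FPKM in Alone libraries (SD, n = 6 each). Wnt5b was called only in the fit with the culture as a block, where its log2 fold change was 0.97 (adjusted p = 0.00597). In bulk RNA, fewer cells of a type and less RNA per cell cannot be told apart. The 16 cell cycle genes summed to 64.5 to 131.2 FPKM in BMP6 libraries, against 111.1 to 402.6 in Alone libraries, and the 12 oligodendrocyte lineage markers to 485 to 1121 FPKM in BMP6 libraries, against 568.5 to 1467 in Alone libraries. The part of either in the ligand levels was not tested.

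**Figure D2:**
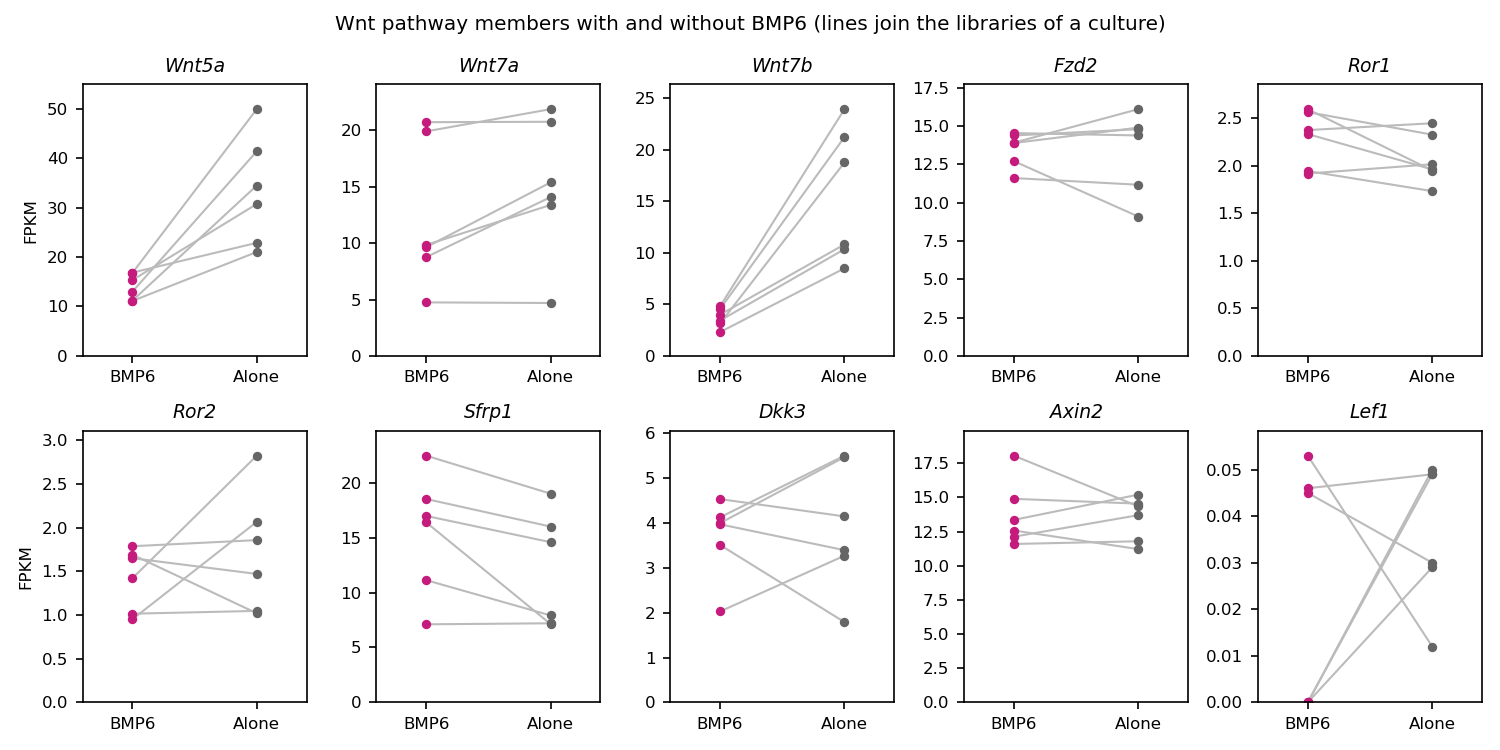
FPKM of the 10 genes (panels) in the 6 BMP6 libraries and the 6 Alone libraries, with a line joining the libraries of a culture. Wnt5a and Wnt7b were lower with BMP6 in 6 of 6 cultures, while the lines of Axin2, Fzd2 and Dkk3 go both ways.

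In the disorder models the ligands moved by less, and no ligand was called. Wnt7b, lowest, median and highest, had 8.09, 9.62 and 14.5 FPKM in FXS libraries and 7.24, 17.7 and 20.9 in RTT libraries. It had 7.59, 16.2, 11.3 and 12.8 FPKM in the 4 DS libraries, against 13.5, 16.5 and 26.7 in WT libraries. The FXS and DS ranges lay mostly below WT but overlapped it, and 1 RTT library, number 40, lay below all WT libraries. The log2 difference of Wnt7b was -0.71 in FXS (SE 0.22, adjusted p = 0.118), -0.14 in RTT (SE 0.22, adjusted p = 0.783) and -0.56 in DS (SE 0.25, adjusted p = 0.211), each against WT. Fitted on FXS and WT libraries alone, the FXS difference passed the threshold (adjusted p = 0.0492, over a range of 0.0492 to 0.320 in the 19 alternatives).

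The median of Wnt7a was above that of WT in each model, without a call. It had 17.8, 20.3 and 26.7 FPKM, lowest, median and highest, in FXS libraries and 16.4, 18.9 and 20.9 in RTT libraries. It had 22.6, 22.4, 19.3 and 22.01 FPKM in the 4 DS libraries, against 14.8, 17.3 and 18.8 in WT libraries. All 4 DS libraries lay above all 6 WT libraries, as 6.2% of all genes did in one direction or the other, and the log2 difference of 0.33 (SE 0.10, adjusted p = 0.0533) fell just short of the threshold. Without DS library 32, whose summed FPKM is the highest of its group, Wnt7a was called, as it was after median-of-ratios scaling. Wnt5a had 21.1, 23.0 and 27.2 FPKM in FXS libraries, 22.4, 27.6 and 40.3 in RTT libraries, and 19.2, 29.4, 23.5 and 26.1 in the 4 DS libraries. In WT libraries it had 23.4, 30.6 and 42.4 FPKM, so that all groups overlapped, and its log2 difference was -0.41 in FXS (SE 0.15, adjusted p = 0.147) and -0.37 in DS (SE 0.16, adjusted p = 0.212). Within a library, Wnt7a exceeded Wnt7b in 6 of 6 FXS, 3 of 6 RTT and 4 of 4 DS libraries, against 4 of 6 WT libraries, and no test was made of that ratio.

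**Figure D3:**
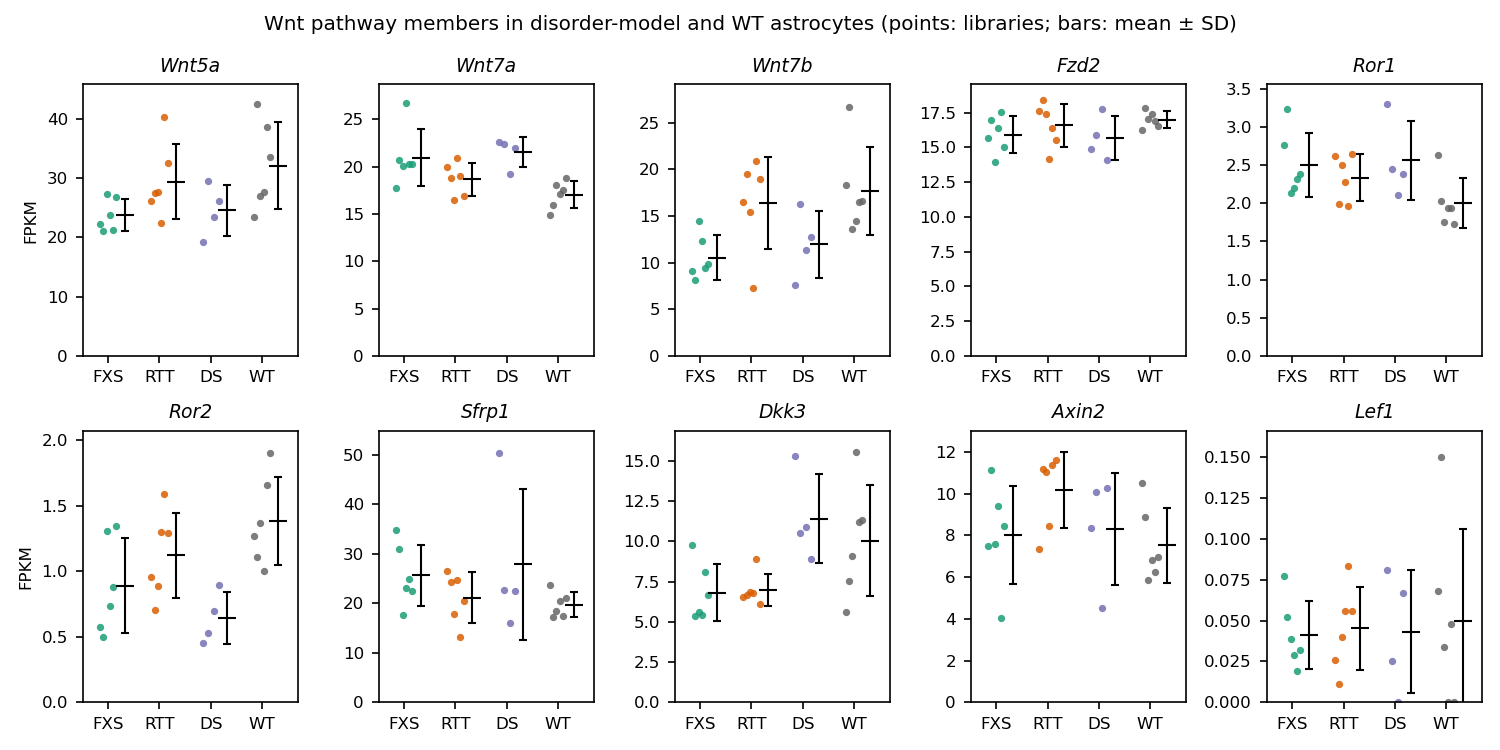
FPKM of the 10 genes (panels, each with its own axis) in FXS, RTT, DS and WT libraries (points), with mean ± SD bars. The DS libraries of Wnt7a lie above, and those of Ror2 below, the 6 WT libraries, and the other genes overlap WT in each model.

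Among the preparations, Wnt5a and Wnt7b set the MD cultured cells apart from the IP cultured cells. Wnt5a had 8.48, 5.84 and 3.86 FPKM in MD cultured libraries, 37.8, 31.5 and 35.4 in IP cultured libraries, and 12.0, 8.72 and 10.3 in IP acute libraries. None of these 3 ranges overlap, IP cultured being the high one. Its log2 fold change was 1.71 in IP cultured against IP acute (SE 0.25, adjusted p = 0.000851) and -2.49 in MD cultured against IP cultured (SE 0.25, adjusted p = 0.000217). Against IP acute, MD cultured cells stood at -0.78 (SE 0.25, adjusted p = 0.0237), a call that ended after median-of-ratios scaling (-0.56, adjusted p = 0.0685), without IP acute library 2 or 7 or MD cultured library 2 or 3 (-0.51 without the last), and that the authors' deposited table does not make (adjusted p = 0.0784). Wnt7b had 13.9, 10.4 and 3.52 FPKM in MD cultured libraries, 73.4, 43.98 and 87.9 in IP cultured libraries, and 56.5, 76.8 and 67.1 in IP acute libraries. All 3 MD cultured libraries were far below the other 6, with log2 fold changes of -2.95 against IP cultured (SE 0.45, adjusted p = 0.00126) and -2.96 against IP acute (SE 0.45, adjusted p = 0.000598), while IP cultured and IP acute overlapped (log2 -0.01, SE 0.45). Wnt7a averaged 49.5 ± 7.67 FPKM in MD cultured, 42.7 ± 13.8 FPKM in IP cultured and 56.5 ± 8.38 FPKM in IP acute libraries (SD, n = 3 each), and the 3 groups overlapped, with no call. Without IP cultured library 4, the high one of its group, Wnt7a was called in IP cultured against IP acute (-0.68, adjusted p = 0.00983) and in MD cultured against IP cultured (0.49, adjusted p = 0.0351). Cell cycle genes summed to 117.9 FPKM in library 4, against 1052 and 1092 in IP cultured libraries 2 and 7. Mural and fibroblast markers summed to 1636 FPKM there, against 579.8 and 412.7. Among IP cultured libraries, number 4 was also lowest in Wnt5a, Wnt7b, Ror2 and Axin2 and highest in Sfrp1 and Dkk3. The part of its make-up in these levels was not tested. Within a library, the level of Wnt7a was 4.08 to 11.8 times that of Wnt7b in the MD cultured cells and 0.415 to 1.33 times in the IP cultured cells.

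The centre of the fold changes over all genes was shifted downward in MD cultured cells, though genes were called in both directions. The median log2 fold change over all genes was -0.16 in MD cultured against IP cultured and -0.24 in MD cultured against IP acute, and it was 0.00 and -0.02 after median-of-ratios scaling. On that scale Wnt5a stood at -2.33 and Wnt7b at -2.79 in MD cultured against IP cultured. The 12 oligodendrocyte lineage markers summed to 469 to 728 FPKM in MD cultured libraries, 2171 to 4195 in IP cultured libraries and 1261 to 1656 in IP acute libraries. Their part in the Wnt7b difference was not tested.

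**Figure D4:**
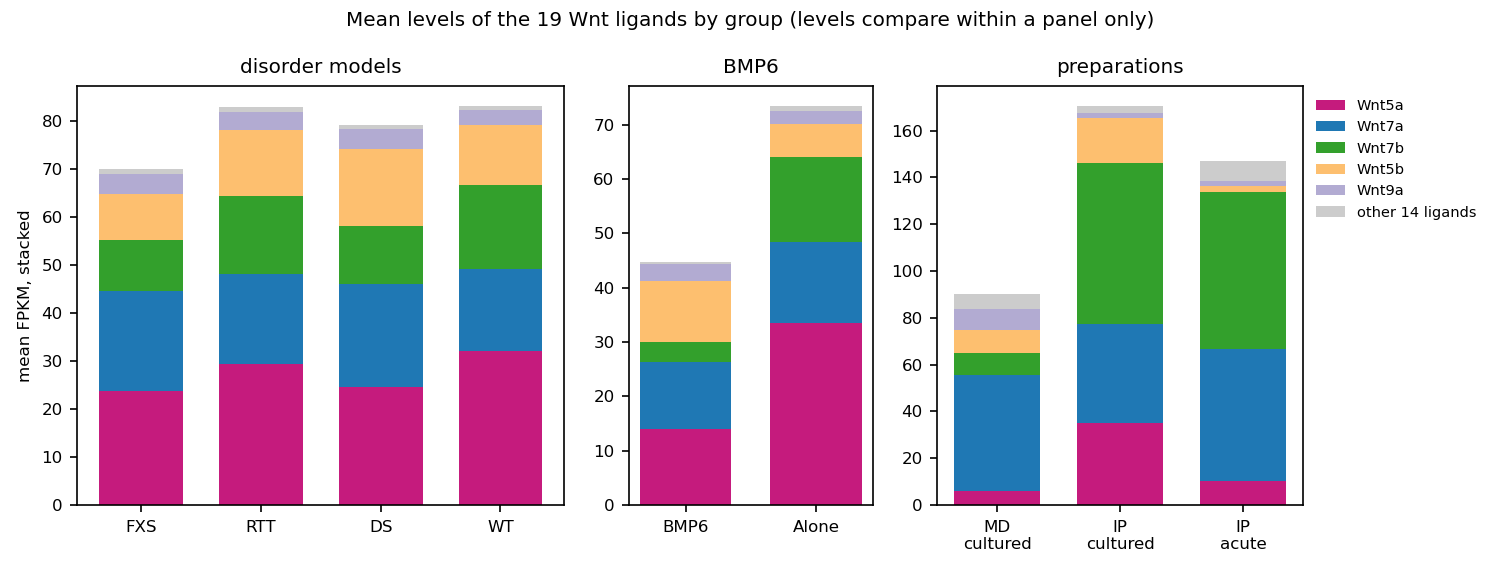
Mean FPKM of Wnt5a, Wnt7a, Wnt7b, Wnt5b, Wnt9a and the other 14 Wnt ligand genes, stacked by group, in the disorder, BMP6 and preparation tables (panels, each with its own axis). The stack averages 44.8 FPKM with BMP6 and 73.4 without it, and 90.2, 170.5 and 147 FPKM in MD cultured, IP cultured and IP acute cells.

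Of the receptors, Ror2 was the single member called in a disorder model. Ror2 had 0.454, 0.526, 0.701 and 0.896 FPKM in the DS libraries, against 1.00, 1.32 and 1.90, lowest, median and highest, in WT libraries. The groups did not overlap, and the log2 fold change of Ror2 was -0.72 (SE 0.19, adjusted p = 0.0381). At this level the call was fragile: it was lost in 7 of 16 alternatives, without any one of WT libraries 22, 30, 34 or 35 or DS libraries 19 or 21, and with only DS and WT in the fit (adjusted p from 0.0341 to 0.171 over the 16). Ror2 had 0.501, 0.810 and 1.34 FPKM in FXS libraries and 0.708, 1.13 and 1.59 in RTT libraries, and its log2 difference from WT was -0.46 in FXS (SE 0.17, adjusted p = 0.158) and -0.22 in RTT (SE 0.17, adjusted p = 0.578). Between the models, DS against FXS differed by -0.26 (SE 0.19, adjusted p = 0.554), so the fall was not shown to be particular to DS. The cell cycle genes summed to 80.7 to 124.3 FPKM in DS libraries, against 133.3 to 283.4 in WT libraries, and their part in the Ror2 level was not tested.

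Ror1 moved little in the same libraries. Its levels were 2.14, 2.35 and 3.24 FPKM in FXS libraries, 1.97, 2.39 and 2.65 in RTT libraries and 3.31, 2.45, 2.11 and 2.39 in the 4 DS libraries, against 1.73, 1.94 and 2.63 in WT libraries. The groups overlapped, and the log2 differences were 0.26 in FXS (SE 0.12, adjusted p = 0.209), 0.18 in RTT (SE 0.12, adjusted p = 0.518) and 0.29 in DS (SE 0.13, adjusted p = 0.219). Ror1 stood above Ror2 in 21 of the 22 libraries of the disorder table. The level of Ror1 was 2.67 to 7.28 times that of Ror2 in DS libraries, against 0.912 to 2.08 times in WT libraries. In FXS libraries it was 1.63 to 6.46 times and in RTT libraries 1.24 to 2.81 times, and no test was made of that ratio. Under BMP6 Ror1 was not called, with a log2 difference of 0.12 (SE 0.11, adjusted p = 0.489). Ror2 lay between 0.95 and 1.79 FPKM in BMP6 libraries, against 1.02 to 2.82 in Alone libraries, a log2 difference of -0.17. It passed the filter there only with the help of the Alone libraries, so this difference is given without a test.

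The Ror pair changed its order between the preparations. Ror1 had 2.95, 4.78 and 3.59 FPKM in MD cultured libraries, 2.21, 1.74 and 0.914 in IP cultured libraries, and 1.89, 0.824 and 1.4 in IP acute libraries. Ror2 had 0.750, 1.63 and 0.799 FPKM in MD cultured libraries, 4.41, 2.46 and 4.13 in IP cultured libraries, and 5.03, 4.64 and 6.35 in IP acute libraries. So Ror1 was above Ror2 in 3 of 3 MD cultured libraries and in 0 of the 6 IP libraries. In MD cultured against IP cultured, Ror1 rose with a log2 fold change of 1.04 (SE 0.32, adjusted p = 0.0257) and Ror2 fell with one of -1.43 (SE 0.28, adjusted p = 0.00392). The Ror1 call was lost without IP cultured library 7, MD cultured library 2 or MD cultured library 3. Against IP acute, in MD cultured cells, Ror1 rose by 1.21 (SE 0.32, adjusted p = 0.00979) and Ror2 fell by 1.94 (SE 0.28, adjusted p = 0.000464). The neighbouring groups IP cultured and IP acute differed in Ror2 without overlap, as 51.9% of all genes did, but not past the threshold (log2 -0.51, SE 0.28, adjusted p = 0.173).

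**Figure D5:**
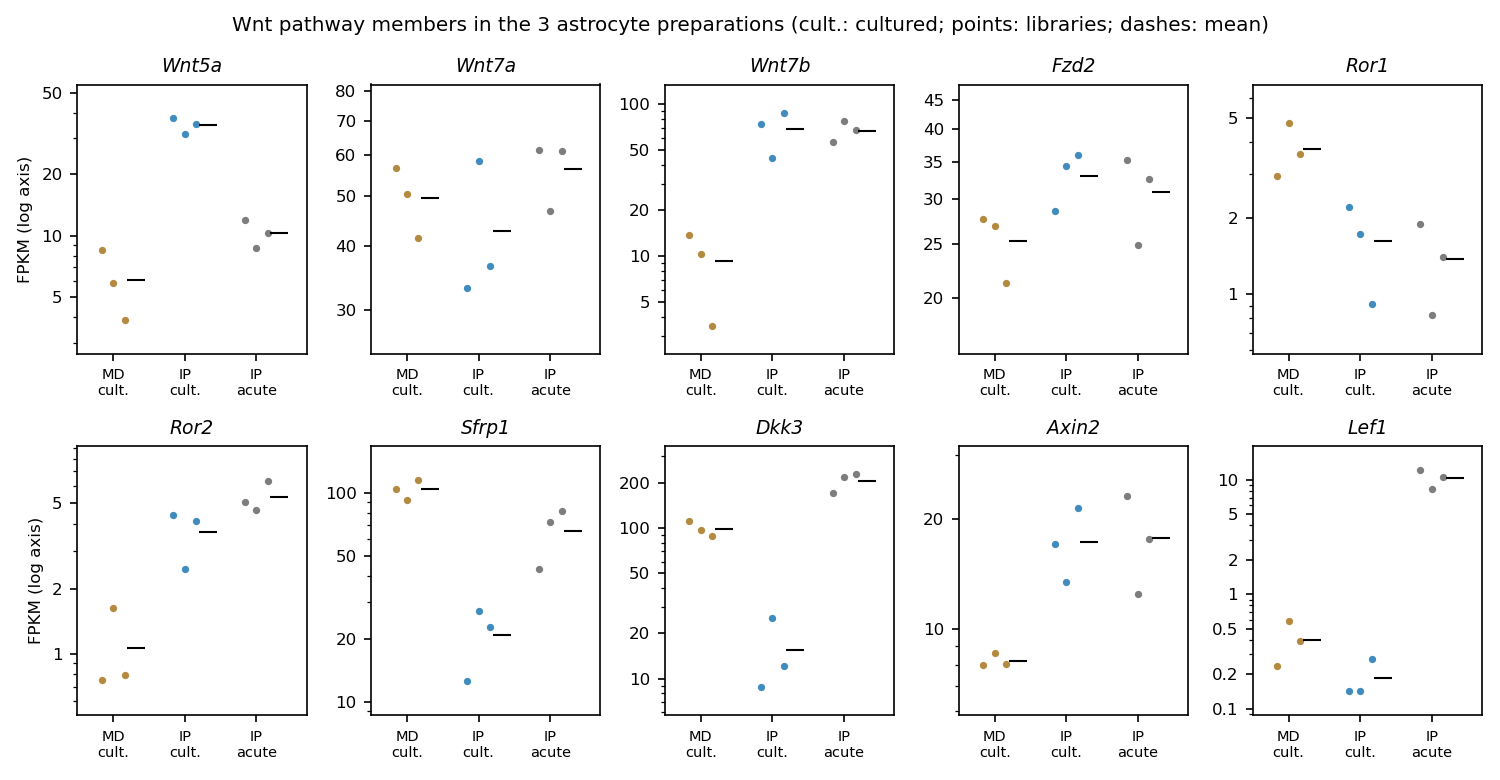
FPKM of the 10 genes (panels, log axes) in MD cultured, IP cultured and IP acute libraries (points, with dashes at the mean). Wnt5a is highest in the IP cultured libraries, Wnt7b and Ror2 are lowest and Ror1 highest in the MD cultured ones, and Lef1 exceeds 1 FPKM in the IP acute ones only.

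Fzd2, a Frizzled receptor, was called in no comparison. Its means were 15.9 ± 1.32 FPKM in FXS, 16.6 ± 1.56 in RTT, 15.7 ± 1.59 in DS and 17 ± 0.58 in WT libraries (SD, n = 6, 6, 4 and 6), and 13.5 ± 1.13 FPKM in BMP6 and 13.4 ± 2.68 in Alone libraries (SD, n = 6 each). Among the preparations it averaged 25.3 ± 3.504 FPKM in MD cultured, 32.99 ± 3.91 in IP cultured and 30.9 ± 5.40 in IP acute libraries (SD, n = 3 each). The 95% interval of its log2 difference was -0.24 to 0.31 in BMP6 against Alone. The 3 MD cultured libraries lay at 27.7, 26.9 and 21.3 FPKM, below the 3 IP cultured ones at 28.6, 34.4 and 36.0 FPKM. These groups did not overlap, as held for 56% of all genes. The log2 difference between them was -0.38 in limma (SE 0.17, unadjusted p = 0.0495, adjusted p = 0.0922).

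The secreted modulators Sfrp1, which binds Wnt proteins and Frizzled receptors outside the cell, and Dkk3, a divergent member of the Dickkopf family, moved far between the preparations. Sfrp1 had 104.5, 92.0 and 114.9 FPKM in MD cultured libraries, 12.6, 27.3 and 22.6 in IP cultured libraries, and 43.2, 72.0 and 81.5 in IP acute libraries. The 3 ranges did not overlap. Its log2 fold change was -1.65 in IP cultured against IP acute (SE 0.31, adjusted p = 0.00306) and 2.35 in MD cultured against IP cultured (SE 0.31, adjusted p = 0.000664). Against IP acute, its log2 difference in MD cultured cells was 0.70 (SE 0.31, adjusted p = 0.0782), and it passed the threshold after median-of-ratios scaling (0.94, adjusted p = 0.0297) and in the authors' deposited table (adjusted p = 0.00109).

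Dkk3 had 110.8, 97.5 and 89.3 FPKM in MD cultured libraries, 8.77, 25.3 and 12.2 in IP cultured libraries, and 172.4, 217.9 and 229.6 in IP acute libraries. Again the ranges were apart, with IP cultured lowest. Its log2 fold change was -3.83 in IP cultured against IP acute (SE 0.33, adjusted p = 6.26e-05) and 2.78 in MD cultured against IP cultured (SE 0.33, adjusted p = 0.00043). Against IP acute, MD cultured cells had a log2 fold change of -1.050 (SE 0.33, adjusted p = 0.0213), a call that ended after median-of-ratios scaling (-0.81, adjusted p = 0.0587) and without IP acute library 4 or 7 or MD cultured library 2 or 3, while the authors' deposited table gives -0.81 with an adjusted p of 2.82e-07. The 12 neuronal markers summed to 105.4 to 214 FPKM in MD cultured libraries, 14.02 to 26.4 in IP cultured libraries and 379.1 to 1675 in IP acute libraries, the same order as Dkk3. The 12 endothelial markers had that order too, at 71.4 to 112.8, 7.31 to 23.5 and 914.6 to 1718 FPKM. Within the IP acute libraries, in the order given for Dkk3, the neuronal sums were 546.1, 1675 and 379.1 FPKM. The part of either list in the Dkk3 level was not tested.

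Neither modulator was called under BMP6 or in a disorder model against WT. Sfrp1 had 17.7, 24.1 and 34.7 FPKM, lowest, median and highest, in FXS libraries, 13.15, 22.4 and 26.6 in RTT libraries and 50.3, 22.6, 16.02 and 22.5 in the 4 DS libraries, against 17.3, 19.5 and 23.8 in WT libraries. The groups overlapped, DS library 19 being far above the rest, and the log2 difference was 0.35 in FXS (SE 0.21, adjusted p = 0.401) and 0.36 in DS (SE 0.24, adjusted p = 0.426). Sfrp1 had 7.11, 16.7 and 22.5 FPKM in BMP6 libraries, against 7.12, 11.2 and 18.99 in Alone libraries, and was higher with BMP6 in 5 of 6 cultures (log2 0.37, SE 0.31, adjusted p = 0.444). Over the 19 alternatives, which include the culture as a block, this adjusted p ran from 0.0683 to 0.627. Dkk3 had 8.91 to 15.3 FPKM in the 4 DS libraries, 5.33 to 9.74 in FXS libraries and 6.09 to 8.89 in RTT libraries, beside 5.60 to 15.5 in WT libraries. All DS libraries were above all RTT libraries, as 3.75% of all genes differed without overlap. The differences between models were 0.71 in DS against FXS (SE 0.21, adjusted p = 0.0777) and 0.66 in DS against RTT (SE 0.21, adjusted p = 0.103). In these comparisons, and in RTT against FXS, no member was called, while 2.72%, 2.74% and 0.0235% of all genes were. An unadjusted p under 0.05 was reached by 1, 3 and 1 of the 9 in these comparisons, against 15.9%, 19.2% and 14% of all genes. Wnt7b in RTT against FXS was 0.57 (SE 0.22, adjusted p = 0.261), and without RTT library 40 it passed the threshold (adjusted p = 0.028). In that fit 593 of all genes were called, against 3 with all libraries.

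The 2 genes downstream of beta-catenin behaved differently from each other. Axin2, a scaffold of the complex that breaks down beta-catenin and a feedback target of the pathway, stayed in a narrow range under BMP6. It had 11.6, 13.0 and 18.1 FPKM in BMP6 libraries, against 11.2, 14.02 and 15.2 in Alone libraries, and 3 of 6 cultures were higher with BMP6. The log2 difference was 0.02 (SE 0.11, adjusted p = 0.914), with a 95% interval of -0.22 to 0.27. In the models it had 4.06, 8.02 and 11.1 FPKM in FXS libraries, 7.33, 11.1 and 11.6 in RTT libraries and 8.34, 10.1, 4.51 and 10.3 in the 4 DS libraries, against 5.85, 6.87 and 10.5 in WT libraries. None of these differences was called, the one in RTT being 0.42 (SE 0.21, adjusted p = 0.478). Axin2 was lower in MD cultured cells. It had 8.00, 8.62 and 8.04 FPKM in MD cultured libraries, 17.1, 13.5 and 21.5 in IP cultured libraries, and 23.1, 12.5 and 17.6 in IP acute libraries. On the log2 scale its difference was -1.01 against IP cultured (SE 0.23, adjusted p = 0.0084) and -1.02 against IP acute (SE 0.23, adjusted p = 0.00523), while IP cultured and IP acute overlapped.

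Lef1, a DNA-binding partner of beta-catenin and itself a target, was near 0 in all cultures. In the disorder and BMP6 tables it lay between 0 and 0.15 FPKM, which corresponds to 0 to 9 reads in a library, with 6 of 34 libraries at 0. A count of 0 there allows up to 3 reads, or 0.0462 to 0.124 FPKM, counting error only. So Lef1 stayed at or below 0.15 FPKM in all FXS, RTT, DS, WT, BMP6 and Alone libraries. Differences among these groups within that range were not detectable at this depth. Lef1 had 0.238, 0.579 and 0.389 FPKM in MD cultured libraries (11 to 28 reads), 0.143, 0.144 and 0.272 in IP cultured libraries (7 to 12 reads), and 12.2, 8.26 and 10.6 in IP acute libraries (377 to 585 reads). The IP acute libraries lay above all others. Since they alone brought Lef1 past the filter, the differences from them, -3.97 in IP cultured and -3.59 in MD cultured cells on the log2(FPKM + 0.5) scale, are given without a test. The pseudocount understates these folds, and the authors' deposited table gives -5.58 and -4.49. Brain endothelium is known to express Lef1, and the 12 endothelial markers summed to 71.4 to 112.8 FPKM in MD cultured libraries, 7.31 to 23.5 in IP cultured libraries and 914.6 to 1718 in IP acute libraries. The transporter gene Slco1a4 alone gave 55.9 to 98.0 FPKM of the sum in MD cultured libraries, where Cldn5 was at 0 to 0.035 FPKM. The part of endothelial RNA in the Lef1 level of the IP acute libraries was not tested.

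The other genes of the pathway came from 7 lists holding 95 genes beside the members, of which 94 are in the tables. Of these, 55 could be tested among the disorder and BMP6 libraries. In FXS and in RTT against WT 0 of the 55 were called, and in DS 1 was, beside 4.35% of all genes. That gene was Vangl2, a core gene of planar cell polarity, which rose in DS with a log2 fold change of 0.54 (SE 0.12, adjusted p = 0.0081), at 33.5 ± 6.57 FPKM in DS libraries and 22.6 ± 1.70 in WT libraries (SD, n = 4 and 6), without overlap. The median log2 difference of the 55 was 0.01 in FXS, 0.07 in RTT and -0.04 in DS, beside -0.02, -0.03 and -0.07 over all genes.

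In BMP6 against Alone 49 of the 55 reached 1 FPKM in all libraries of both groups. Of these 49, 6 were called, 3 higher and 3 lower, beside 14.7% of all genes counted in that way. The others had no call. The Frizzled receptor Fzd5 rose by 0.92 (SE 0.14, adjusted p = 0.00223), at 7.09 ± 1.92 FPKM in BMP6 libraries and 3.45 ± 0.414 in Alone libraries (SD, n = 6 each). Tcf7, which encodes a TCF factor, rose by 1.02 (SE 0.21, adjusted p = 0.0104), at 8.10 ± 2.11 FPKM in BMP6 libraries and 3.795 ± 1.25 in Alone libraries (SD, n = 6 each). Myc, a growth-promoting transcription factor on the target list, fell by 0.79 (SE 0.15, adjusted p = 0.00601), at 16.7 ± 1.02 FPKM in BMP6 libraries and 30.03 ± 7.87 in Alone libraries (SD, n = 6 each). Apc2, a relative of the Apc scaffold, rose by 0.86 (adjusted p = 0.00244), and the polarity gene Scrib and the beta-catenin co-factor Pygo2 fell by 0.49 (adjusted p = 0.0358) and 0.25 (adjusted p = 0.0155). With the culture as a block the same 6 genes and 16 others of the 55 were called, 13 higher and 9 lower in all. That fit called 35.5% of all genes tested, with none left out, so its counts are read against a larger share. In it 5 of the 8 Frizzled receptors tested were called, with Fzd5, Fzd7 (0.68, adjusted p = 0.0102), Fzd8 and Fzd4 higher and Fzd9 lower (-1.49, adjusted p = 0.0034). These Frizzled genes other than Fzd5, like Wnt5b above, were singled out after their values were seen. The median over the 55 was -0.01, beside -0.08 over all genes, and median-of-ratios scaling moved the share of higher calls among all called genes from 35.6% to 59.6%.

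Among the preparations 73 of the 94 genes were tested. In IP cultured against IP acute 10 of them passed the filter only with the help of the IP acute libraries, and these are described by their levels alone. Of the other 63, 24 were called, 4 higher and 20 lower. Without genes of that kind 40.4% of all genes were called, 19% higher and 21.4% lower. In the target list 6 of the 9 remaining genes fell and 0 rose, in the polarity list 5 of 10 fell and 0 rose, and among the secreted modulators 2 of 6 fell and 0 rose. Nkd1, an inhibitor of Dishevelled, stood at 6.31 ± 1.96 FPKM in IP cultured libraries and 44.9 ± 9.29 in IP acute libraries, and Tnfrsf19 at 62.1 ± 5.10 and 383.8 ± 37.4 FPKM in these groups (SD, n = 3 each), with log2 fold changes of -2.76 (adjusted p = 8.03e-05) and -2.62 (adjusted p = 4.96e-06). Sp5, a transcription factor of the same list and one of the 10, stood at 0.130 ± 0.0297 FPKM in IP cultured libraries and 8.34 ± 2.54 in IP acute libraries (SD, n = 3 each). Notum, which removes the lipid from Wnt proteins, is another of the 10, at 0.516 ± 0.0871 FPKM in IP cultured libraries and 19.6 ± 5.36 in IP acute libraries (SD, n = 3 each). A further one of the 10 is the R-spondin receptor Lgr6, at 0.177 ± 0.0505 FPKM in IP cultured libraries and 20.1 ± 5.19 in IP acute libraries (SD, n = 3 each). The endothelial Wnt7 co-receptor Adgra2 fell by 2.19 (adjusted p = 0.00595). Wnt5b rose with Wnt5a, at 19.4 ± 7.79 FPKM in IP cultured libraries and 2.81 ± 0.169 in IP acute libraries (SD, n = 3 each; log2 2.51, adjusted p = 0.000158), and beta-catenin itself (Ctnnb1) rose by 0.63 (adjusted p = 0.00254). The endothelial and neuronal marker sums given above differ between the same groups, and their part was not tested.

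In MD cultured against IP cultured the ligand Wnt2b passed the filter only with the help of the MD cultured libraries. Its level was 4.15 ± 0.635 FPKM in MD cultured libraries and 0.202 ± 0.0491 in IP cultured libraries (SD, n = 3 each), without a test. Of the other 72 genes 32 were called, 12 higher and 20 lower, beside 45% of all genes counted in that way, 14.8% higher and 30.2% lower. Among the ligands Wnt9a rose, at 8.96 ± 0.186 FPKM in MD cultured libraries and 2.06 ± 1.20 in IP cultured libraries, and Wnt5b fell, at 10.04 ± 1.47 and 19.4 ± 7.79 FPKM in these groups (SD, n = 3 each; adjusted p = 0.0021 and 0.0258). The Frizzled gene Fzd9 fell by 4.30 (adjusted p = 0.000144), at 1.19 ± 0.387 FPKM in MD cultured libraries and 35.3 ± 17.1 in IP cultured libraries (SD, n = 3 each), while Fzd4 and Fzd5 rose by 0.96 and 0.90 (adjusted p = 0.00348 and 0.00271). Of the 10 targets tested 2 rose and 5 fell, with Myc at 12.6 ± 0.813 FPKM in MD cultured libraries and 52.7 ± 18.03 in IP cultured libraries (SD, n = 3 each; log2 -1.97, adjusted p = 0.000314). Against IP acute, 11 genes passed the filter only with the help of 1 of the groups compared. Of the other 62, MD cultured cells had 35 called, 9 higher and 26 lower, beside 57.3% of all genes counted in that way, 19.9% higher and 37.4% lower, and 6 of 9 targets fell. Median-of-ratios scaling moved the share of higher calls among all called genes from 35.9% to 50.5% in the first of these comparisons and from 33.9% to 47.7% in the second.

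Across the 22 libraries of the disorder table, with group means removed, the levels of the 3 ligands were related unequally. Wnt5a and Wnt7b went together (Pearson r = 0.72), and Wnt7a followed neither (r = -0.02 with Wnt5a and -0.18 with Wnt7b). Ror1 and Ror2 went apart (r = -0.48), and Sfrp1 went with Ror1 (r = 0.70) and against Wnt5a (r = -0.65). The genes most like each member on log2 values, among all genes with a mean of 2 FPKM or more, were Tril (0.87), Fbxo45 and Atp8a1 for Wnt5a, Sept3 (0.76), Pura and Tspan9 for Wnt7a, and Lrrn1 (0.84), Slc7a11 and Akap7 for Wnt7b. For Ror1 they were Mapk9 (0.89), Maf and Wbscr17, for Ror2 Fbxw4 (0.84), Prkar2a and Wdr4, and for Fzd2 Tomm20 (0.86), Tspan7 and Mmd. Sfrp1 was followed most closely by Col4a5 (0.89), Jazf1 and Itih3, Dkk3 by Endod1 (0.87), Dhrs3 and Slco3a1, and Axin2 by L3mbtl3 (0.96), Plcg1 and Chd3. Each r is over 22 libraries, which share depth and scaling, and is given without a test.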

How the data were processed

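RNA-seq libraries from mouse astrocytes (43 in all) were read from 3 tables of 24537 genes that the authors deposited. The disorder and BMP6 values were deposited as FPKM. Per the labels' protocols, poly(A) RNA went into stranded libraries read as 50-base single ends. Per the submitters' processing notes the tools were STAR 2.5.3a, HOMER 4.10.4, DESeq2 1.14.1 and FastQC 0.11.8, on mm10, with no role given, and whether counting used strand is not given in the sources used here. Wnt5a, Wnt7b, Axin2 and Lef1 share exon bases with antisense genes. The header of the preparation table names no unit, and its values are taken as FPKM because they step in whole reads. That table also holds log2 fold changes and adjusted p-values, which are quoted as the authors' deposited values.

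No raw counts were used. Values were tested as log2(FPKM + 0.5) with limma 3.58.1 in R 4.3.3, on deposited FPKM, with a trended variance, groups as the only term and all groups of a table in 1 fit. Genes needed 1 FPKM in at least 4 libraries (disorder), 6 (BMP6) or 3 (preparation). Fold changes are on that scale and understate changes of low genes. Sums of FPKM differed between libraries, and no rescaling was applied in the main fit. The gene targeted in the RTT model is not reported here. The 10 genes, the lists and the rule for named genes (all members, up to 3 pathway genes of smallest p per list and comparison, the 3 most alike genes) were chosen with earlier results of these data known. Leave-one-out fits, pseudocounts of 0.1 and 1, no filter, a filter at 5 FPKM, median-of-ratios scaling, fits of only the 2 groups and a replicate block were the alternatives.

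BMP6 and Alone libraries carry shared culture numbers and batch labels in pairs. The deviations of same-numbered libraries from their group means correlated at 0.41 to 0.777, each culture best with its own partner, so the numbers pair the samples. The labels call the libraries of the disorder and BMP6 tables biological replicates. For the preparation table they do not say so, so a p-value of that table measures only how these libraries spread, which may be technical. Depth was estimated from the FPKM steps and transcript lengths: at the chosen depth 70.6% to 76.4% of low values lay within 0.08 of a whole read.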

Additional observations from a re-analysis of the deposited data

Results flagged for a closer look

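Among 60 combinations of a member and a group of 4 to 10 libraries, 4 libraries stood far from the rest of their group by Dixon's criterion, which chance meets in about 1 of 20 groups. Wnt7b was 26.7 FPKM in WT library 26, against 13.5 to 18.3 in the other 5 WT libraries. Ror1 was 2.63 FPKM in WT library 22, against 1.73 to 2.03 in the others. Wnt7a was 26.7 FPKM in FXS library 29, against 17.8 to 20.7 in the others, and Dkk3 was 8.89 FPKM in RTT library 43, against 6.09 to 6.83 in the others.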

How the results depend on the processing

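Over 71 results for single genes, 1041 of 1099 alternative values kept their direction and their side of the threshold, 28 changed direction, 20 lost a call and 10 gained one. The number of members called in DS against WT was 0 with a filter at 5 FPKM, which tests neither Ror gene, 0 with only the 2 groups in the fit, 2 after median-of-ratios scaling, 2 without WT 33, FXS 31 and DS 32 together, an alternative chosen after seeing the data, and 0 to 2 with a library left out. For FXS against WT it was 1 with only the 2 groups in the fit. Leaving out a library gave 0 to 1 member for DS against FXS (Dkk3, without FXS library 17) and for RTT against FXS (Wnt7b, without RTT library 40), and 4 to 7 for MD cultured against IP acute, the 4 coming without IP acute library 7, when Lef1 also failed the filter. Of the other pathway genes, 1 was called for FXS against WT with only the 2 groups, and for DS against WT 2 with a pseudocount of 0.1, 3 without the 3 libraries together and 1 to 2 with a library left out. For BMP6 against Alone 22 were called with the replicate block and 5 to 11 with a library left out. The block changed no call among the members. IP cultured and IP acute libraries share numbers too, but same-numbered ones correlated at only -0.05 to 0.085, and the block there gave 4 members and 28 pathway genes. Counts in this paragraph include Lef1 and the other genes that passed the filter only with the help of 1 group.

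Reversed differences were small and uncalled. With a library left out, Axin2 ranged from -0.0447 to 0.225 in FXS against WT, -0.0199 to 0.348 in DS against WT, -0.0556 to 0.0679 for BMP6 and -0.236 to 0.198 in IP cultured against IP acute. In RTT against WT the ranges were -0.225 to 0.0685 for Wnt7b, -0.00218 to 0.195 for Sfrp1 and -0.0694 to 0.00386 for Fzd2. For BMP6 they were -0.215 to 0.09998 for Dkk3 and -0.0706 to 0.0876 for Fzd2, and in IP cultured against IP acute -0.219 to 0.276 for Wnt7b, -0.0583 to 0.437 for Ror1 and -0.0440 to 0.204 for Fzd2. Median-of-ratios scaling gave 0.0274 for Dkk3 with BMP6, 0.0504 for Wnt7b and 0.0497 for Axin2 in IP cultured against IP acute, and 0.0477 for Wnt7a in MD cultured against IP acute. The cause was not tested. A filter at 5 FPKM gives no value for Ror1 and Ror2, and reads limit what Lef1 in cultures can show.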
